A study of Mus musculus with 4 samples.

Results

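Follicular B cells are the small recirculating B lymphocytes that fill the B cell follicles of the spleen. They were selected on measured UMIs (unique molecular identifiers, the random tags that mark single RNA molecules) in the aged spleen and young spleen libraries of a mouse single-cell RNA study. A barcode counted as a cell with at least 500 UMIs, at least 250 genes and at most 10% mitochondrial UMIs. Members were chosen by the UMIs of 8 genes: a cell was a member if Cd79a, Cd79b and Ms4a1 together reached at least 5 UMIs, Fcer2a at least 1, the CD3 genes Cd3d, Cd3e and Cd3g together 0 and Jchain less than 20. The rule gave 1237 members in aged spleen and 1832 in young spleen, 3069 of the 12548 filtered barcodes of both spleens and of 35204 in all 4 libraries. Cells that met the same rule but had 0 Fcer2a UMIs are called other B cells.

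The study held 4 libraries, 1 each of aged brain, aged spleen, young brain and young spleen, of cells sorted by flow cytometry for a high level of the leukocyte surface protein CD45. By the labels all mice, aged and young, had received tamoxifen some weeks earlier for the reading of tdTomato+ NK cells. Strain, sex, age in numbers, the Cre driver and any pooling of mice were not given in the labels, which call all cells neuroblast. The members go against that last label: the neuroblast genes Dcx and Sox11 had 0 UMIs in both spleens, while Ptprc, the gene of CD45, had a UMI in 94.0% of aged and 96.9% of young members. By sex genes the members of both spleens read as male. Ddx3y, of the Y chromosome, had a UMI in 54.2% of aged and 44.6% of young members. Xist, of female cells, had 1 UMI in aged and 1 in young members. Each age has 1 library, so nothing was replicated or tested, and a difference is one between these 2 libraries. Intervals are at 95% and cover only the error of counting.

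Follicular B cells arise from transitional B cells, need B cell receptor and BAFF signals to survive, and follow the chemokine CXCL13 into follicles through its receptor CXCR5. They carry both IgM and IgD and the low-affinity IgE receptor CD23, the product of Fcer2a, which marginal zone B cells largely lack. On meeting antigen they switch on immediate early transcription factors and NF-kB, raise CD83 and CD86 and either enter germinal centres or become plasma cells.

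The aged members held 6024145 UMIs and the young members 8084567, with medians of 4262 and 3857 UMIs and of 1594 and 1552 genes per cell. The median mitochondrial share was 6.31% in aged and 5.48% in young members. Cell barcodes were shared between libraries: 1200 of 1237 aged members lay at barcodes that also passed as cells in the young brain library, and at 1199 of them the aged spleen held more UMIs. The young brain held a median of 18.7% as many UMIs at these barcodes, and 81 of them met the rule there too. Of the young members 14 of 1832 were shared with any library, and 9 filtered barcodes were shared between the 2 spleens. Without shared barcodes 37 aged and 1818 young members were left, and values without them are given for some of the results, with wide intervals. A barcode is shared only if it also passed the cell filter in another library, so the 37 are not a random part of the aged members. Whether they are like the other aged members was not tested. The highest UMI total was 35411 in an aged member and 104201 in a young member, and the second highest young total was 30931.

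Cd79a, a signalling chain of the B cell receptor that the rule used, had a UMI in 99.9% of aged and 99.9% of young members. Of the given markers only Ighd stands outside the rule. Ighd, the IgD heavy chain, which the rule did not use, had one in 95.2% of aged and 96.7% of young members, against 5.74% of aged and 6.70% of young T cells. After each cell was thinned to 1000 UMIs, these shares were 59.3% in aged and 68.0% in young members, and 0.675% and 1.54% in aged and young T cells. The T cells had medians of 5714 and 5138 UMIs in aged and young spleen.

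The first comparison asked what share follicular B cells had among the filtered barcodes of the sorted CD45-high spleen cells at each age. They made up 21.9% of filtered barcodes in aged spleen (interval 20.8 to 23) and 26.5% in young spleen (25.5 to 27.6), a ratio of 0.825 (0.767 to 0.887). That share also depends on the other sorted cells, among them 594 NK cells in aged and 1516 in young spleen. All B cells together made up 33.5% of aged and 33.3% of young barcodes, a ratio of 1.01 (0.946 to 1.07). Within B cells the follicular share was 65.3% of 1893 aged and 79.6% of 2301 young B cells, a ratio of 0.821 (0.763 to 0.883), and other B cells numbered 656 and 469. The marginal zone-like cells, other B cells with at least 2 UMIs of Cd1d1 and Cd9 together, numbered 34 in aged and 31 in young spleen, and the interval of their ratio within B cells spans 1 (1.33, 0.795 to 2.24). Both follicular ratios changed with the cutoffs. They were 0.691 and 0.688 when at least 2 Fcer2a UMIs were asked for, and 0.575 and 0.754 with at most 5% mitochondrial UMIs. The first cutoff counts the UMIs that the rule used, which were fewer in aged B cells, so it gives no separate support. The second left 196 aged and 632 young members, and the median mitochondrial share was higher in aged members. Without shared barcodes the 2 follicular ratios were 0.177 and 0.479, from the 37 aged members left. That setting took out 4858 of 5647 aged and 43 of 6901 young filtered barcodes. It falls almost wholly on the aged library, so these 2 values do not compare like with like.

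The split within B cells followed the amount of Fcer2a RNA per cell, which is what the rule counts. Of aged B cells 34.7% had no Fcer2a UMI, 23.1% had 1 and 14.0% had 4 or more. Of young B cells 20.4% had none, 18.2% had 1 and 31.4% had 4 or more. At 1000 UMIs per cell, 26.9% of aged and 44.3% of young B cells had an Fcer2a UMI. Over all B cells Fcer2a (chr8:3681737-3694175 in GRCm38, minus strand) stood at 341 CPM (UMIs per 1e6 UMIs) in aged and 629.8 CPM in young spleen, a ratio of 0.541 (0.518 to 0.565).

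**Figure D1:**
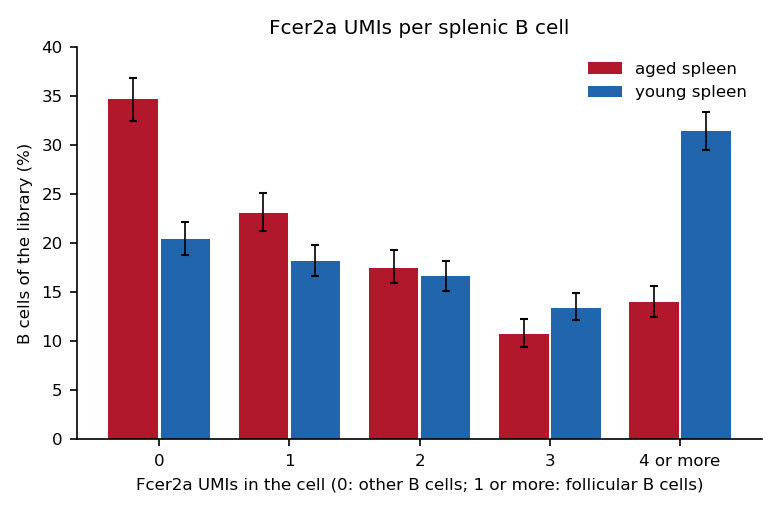
Fcer2a UMIs per B cell: the horizontal axis gives the UMIs in a cell, the vertical axis the percentage of B cells of a library, with exact 95% intervals (1893 aged and 2301 young B cells). Aged spleen has the taller bars at 0 and 1 UMI and young spleen at 4 or more, 14.0% against 31.4%.

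Values just outside and just inside the Fcer2a threshold are given as a description. Ighd stood at 633 CPM in aged and 740.4 CPM in young B cells with 0 Fcer2a UMIs, at 858 and 1108 CPM with 1 UMI, and at 922 and 1137 CPM with at least 2. Cr2, the complement receptor CD21, which marginal zone cells carry most of, stood at 228 CPM in aged and 276 CPM in young cells with 0 UMIs, and at 176 and 295 CPM with 1.

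The second comparison asked which genes differed in level between aged and young follicular B cells. UMIs were summed over the members of each library and given as CPM, and the ratio is CPM in aged over CPM in young spleen. Of 9302 measured genes, those with 50 or more UMIs in the members of both spleens together, 470 were at least 1.5-fold higher in aged cells (5.05%) and 971 at least 1.5-fold lower (10.4%). The median log2 ratio over all of them was -0.13. Scaling by the median of ratios in place of totals moved that median to -0.01 and turned the split to 695 higher and 565 lower, so a list is read here against -0.13 and not against 0. With totals as the scale, 15.5% of measured genes were at least 1.5-fold apart in one direction or the other. Of 8433 genes left after setting aside immunoglobulin, T cell receptor, haemoglobin, ribosomal, mitochondrial and sex genes, gene models, genes of the rule and genes at less than 10% of their level in another cell type, 4.57% were higher and 9.27% lower.

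In a list of 20 genes of B cell identity the median log2 ratio was -0.30, against -0.13 over all genes. In that list 16 members stayed within 1.5-fold, 0 were higher (background 5.05%) and 4 lower (background 10.4%). Cd52, a small lymphocyte surface glycoprotein, was the lowest, at 1190 CPM in aged and 2397 CPM in young cells, a ratio of 0.496 (0.483 to 0.510). Cd79b, the partner of Cd79a in the B cell receptor and used by the rule, stood at 701 CPM in aged and 1277 CPM in young cells, a ratio of 0.549. Cr2 stood at 171 CPM in aged and 293 CPM in young cells, a ratio of 0.583 (0.542 to 0.628), and 12.5% of aged against 24.1% of young members had a Cr2 UMI at equal depth. The fourth was Spib, a transcription factor of B cells, at 170.1 and 256 CPM in aged and young cells, a ratio of 0.664. Ms4a1, which encodes CD20, had a ratio of 0.624, Fcer2a 0.658, Ighd 0.797 and Cd79a 0.816, and of these 4 only Ighd stands outside the rule. Other members lay nearer to the median of all genes: the inhibitory lectin Cd22 at 0.848 and the scaffold Bank1 at 0.881. Scd1, a fatty acid desaturase, ran the other way, at 575 CPM in aged and 435 CPM in young cells, a ratio of 1.32. In other B cells the ratio of Cd52 was 0.494, that of Cd79b 0.493 and that of Cr2 0.824. Without shared barcodes the ratio of Cd52 was 0.414 (0.336 to 0.506), that of Cd79b 0.657 (0.522 to 0.818) and that of Cr2 0.459 (0.244 to 0.786), whereas Fcer2a came to 0.906 (0.704 to 1.15).

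B lineage transcription factors were mostly alike. Of 20 measured, 2 were at least 1.5-fold higher (background 5.05%) and 2 lower (background 10.4%), with a median log2 ratio of -0.08. Pax5, which maintains B cell identity, had a ratio of 0.887, and Ebf1, which acts with it, 1.05. Irf4, a factor that rises with B cell receptor signal strength and drives plasma cell fate at high dose, stood at 351 CPM in aged and 165 CPM in young cells, a ratio of 2.13 (1.99 to 2.29). Foxo1, a factor that receptor signalling holds out of the nucleus, stood at 320.0 CPM in aged and 191 CPM in young cells, a ratio of 1.68 (1.57 to 1.79). On the lower side were Bcl11a, needed for early B cell development, at 262 and 492 CPM in aged and young cells (ratio 0.532), and Id3, an inhibitor of E proteins, at 42.2 and 68.6 CPM (ratio 0.614).

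In the B cell receptor pathway, 21 of 23 genes stayed within 1.5-fold and the median log2 ratio was -0.10. Of the rest 1 was higher (background 5.05%) and 1 lower (background 10.4%). Pik3ap1, the adaptor BCAP that links the receptor to phosphoinositide 3-kinase, was the one higher, at 24.1 CPM in aged and 12.1 CPM in young cells, a ratio of 1.99 (1.53 to 2.59). Without shared barcodes that ratio reversed to 0.847 (0.0212 to 4.83). Btk, a kinase below the receptor, was the one lower, at 81.2 CPM in aged and 123 CPM in young cells, a ratio of 0.660 (0.591 to 0.736). The proximal kinases Syk and Lyn had ratios of 1.13 and 1.05. Among genes that restrain the receptor, Ptpn22, a phosphatase that dampens antigen receptor kinases, stood at 104 CPM in aged and 45.3 CPM in young cells, a ratio of 2.30 (2.02 to 2.63). Leaving out shared barcodes gave 1.36 (0.496 to 2.99) for it. Ptpn6, the phosphatase SHP-1 that CD22 recruits, stood at 284 CPM in aged and 496 CPM in young cells, a ratio of 0.572 (0.540 to 0.606). Inpp5d, the lipid phosphatase SHIP-1, lay just within the threshold at 1.48. The median of the 14 measured genes of this inhibitory list was -0.11.

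Several activation markers were higher in aged cells. Of 16 measured, 7 were at least 1.5-fold higher (background 5.05%), 7 lay between and 2 were lower (background 10.4%). The median log2 ratio was 0.36, against 0.08 in other B cells and 0.58 in T cells. Cd83 (chr13:43784775-43803132 in GRCm38, plus strand), a surface protein induced within hours of B cell stimulation, stood at 707 CPM in aged and 304 CPM in young cells, a ratio of 2.33 (2.22 to 2.45). At 1000 UMIs per cell, 49.2% of aged and 26.2% of young members had a Cd83 UMI, against 4.73% of aged and 0.881% of young T cells. The ratio of Cd83 was 3.02 in other B cells and 3.52 in T cells. The other 6 were Irf4, the anti-apoptotic Bcl2a1b (2.10), the nuclear IkB protein gene Nfkbid (1.89), Myc (1.85), the pleckstrin gene Plek (1.76) and Cd86, the costimulatory ligand of CD28 (1.5). Bcl2a1b is one of several near-identical copies, so its reads are uncertain. Slamf1, a homotypic adhesion receptor, and Cd40, the receptor for T cell help, were lower, with ratios of 0.348 (0.276 to 0.436) and 0.646 (0.562 to 0.743). Cd69, an early activation antigen that holds lymphocytes in tissue, stood apart from Cd83: 45.7% of aged and 47.7% of young members had a UMI at equal depth, and its ratio was 0.953. Without shared barcodes Cd83 had a ratio of 2.15 (1.65 to 2.76) and Irf4 one of 2.19 (1.52 to 3.06).

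NF-kB is a family of dimeric transcription factors held in check by IkB proteins, several of which it induces itself. Of 16 measured subunits and feedback inhibitors, 4 were at least 1.5-fold higher (background 5.05%) and 0 lower (background 10.4%), with a median log2 ratio of 0.24. That median was 0.20 in other B cells and 0.46 in T cells. Rel, the subunit c-Rel of activated B cells, stood at 779.5 CPM in aged and 410.0 CPM in young cells, a ratio of 1.90 (1.82 to 1.99). Nfkbid stood at 264 CPM in aged and 139.8 CPM in young cells, a ratio of 1.89 (1.75 to 2.04). The other 2 were Tnfaip3, the ubiquitin-editing inhibitor A20, at 199 and 117 CPM in aged and young cells (ratio 1.70), and the adaptor Traf1 at 76.2 and 47.6 CPM (ratio 1.6). The remaining subunits lay close to 1, with Nfkb1 at 1.02, Rela at 1.06 and Nfkb2 at 0.856. Summed per cell at 1000 UMIs, the list averaged 2.60 ± 2.11 UMIs in aged and 1.89 ± 1.55 UMIs in young members (SD over cells), and 43.1% of aged against 29.3% of young members lay above the young median. Without shared barcodes Rel had a ratio of 1.97 (1.55 to 2.46) and Nfkbid one of 1.93 (1.25 to 2.84), while Tnfaip3 had 1.24 (0.676 to 2.09).

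Immediate early genes, which are transcribed within minutes of a stimulus or of tissue handling, were split. Of 32 measured, 9 were at least 1.5-fold higher (background 5.05%) and 2 lower (background 10.4%), with a median log2 ratio of 0.21. That median was 0.24 in other B cells and 0.49 in T cells. The 3 nuclear receptors of the Nr4a family, which antigen receptor signals induce, were among the 9. Nr4a1 (chr15:101254269-101274795 in GRCm38, plus strand) stood at 799.6 CPM in aged and 359.8 CPM in young cells, a ratio of 2.22 (2.12 to 2.33). Nr4a3 stood at 47.8 CPM in aged and 8.91 CPM in young cells, a ratio of 5.37 (4.13 to 7.05), and was seen in 14.3% of aged and 3.55% of young members. Barcodes of at most 100 UMIs, which hold free RNA, had Nr4a3 at 152 CPM in aged and 34.0 CPM in young spleen. Both values lay above its levels in the members, and the part of free RNA in Nr4a3 was not tested. Nr4a2 had a ratio of 1.84. Without shared barcodes Nr4a3 had a ratio of 2.31 (0.274 to 8.64) and Gadd45b one of 1.10 (0.298 to 2.85), both with intervals that span 1. The others were the AP-1 partner Maff (3.76), the growth arrest gene Gadd45b (2.25), Atf3 (2.18), Egr2 (1.85), and Fosl2 (4.21) and Ier3 (13.2), which in members stood at under 10% of their level in NK cells (Fosl2) and myeloid cells (Ier3) of aged spleen. One aged member held 68 of the 98 aged Ier3 UMIs. Fos, the classic AP-1 subunit, ran against them at 669 CPM in aged and 1088 CPM in young cells, a ratio of 0.615 (0.592 to 0.638), and so did the phosphatase gene Dusp2 at 0.650. Egr1 (0.928), Junb (0.987) and Jun (1.08) were near 1, and the summed list had a median of 17.0 UMIs per 1000 in both aged and young members.

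Within each library the Nr4a1-positive members carried more RNA of several other receptor-induced genes at equal depth. Among 1237 aged members thinned to 1000 UMIs, 594 had an Nr4a1 UMI and 643 did not. Egr1 came to 979.8 UMIs per 1000 cells with and 428 without Nr4a1 in aged spleen, a ratio of 2.29 (1.98 to 2.65), and to 1099 and 618 in young spleen, a ratio of 1.78 (1.59 to 1.98). Cd83 had ratios of 1.28 in aged and 1.29 in young members, and Nfkbid 1.49 and 1.65. Nr4a3 had a ratio of 3.45 (1.94 to 6.48) in aged members and of 0.327 (0.0364 to 1.39) in young members, where its interval spans 1. Fcer2a (1.04 in aged and 1.03 in young members) and Slfn2 (0.958 and 0.981) had intervals that span 1 in both libraries. These contrasts are between cells of 1 library and are given as a description.

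Promoters of some of these genes can be read in RefSeq (build GRCm38.p6), which gave the 250 bases before the start for 7343 of the 9302 measured genes. The kB motif, GGGA followed by any 4 bases and CC, was searched on both strands. It was present in the promoter of 8 of 13 measured NF-kB list genes (61.5%), of 25.4% of measured genes and of 17.6% of all 32851 promoters of that length. In genes at least 1.5-fold higher in aged cells it was present in 25.9%, and in genes at least 1.5-fold lower in 26.9%. For every motif a gene counted if any of its promoters matched, while the share of all promoters is per promoter. The share of genes and that of all promoters are thus unlike measures. The early growth response motif GCGNGGGCG was present in 12 of 27 measured immediate early genes (44.4%), in 10.5% of measured genes and in 4.70% of all promoters. A match describes the letters and is not a site of binding. The promoters of Traf1, Nr4a1 and Nr4a3, also higher in aged cells, held 0 matches to the kB motif. Promoters without a match are left out below. The sequences below show the 3 NF-kB-linked genes Rel, Irf4 and Tnfaip3, whose levels were higher in aged cells, and the capitals mark matches to the kB motif on either strand.
Rel promoter, chr11:23770970-23771219, minus strand: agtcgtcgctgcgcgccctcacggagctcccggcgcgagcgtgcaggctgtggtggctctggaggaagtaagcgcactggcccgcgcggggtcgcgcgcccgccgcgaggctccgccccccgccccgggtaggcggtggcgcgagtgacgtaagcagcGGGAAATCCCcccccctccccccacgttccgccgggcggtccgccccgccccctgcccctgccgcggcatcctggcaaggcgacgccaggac
Irf4 promoter, chr13:30748983-30749232, plus strand: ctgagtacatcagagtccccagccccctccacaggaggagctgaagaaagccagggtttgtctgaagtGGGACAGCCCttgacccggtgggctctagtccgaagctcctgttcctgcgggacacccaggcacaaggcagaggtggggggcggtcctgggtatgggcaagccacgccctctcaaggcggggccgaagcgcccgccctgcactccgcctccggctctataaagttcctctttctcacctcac
Tnfaip3 promoter, chr10:19015411-19015660, minus strand: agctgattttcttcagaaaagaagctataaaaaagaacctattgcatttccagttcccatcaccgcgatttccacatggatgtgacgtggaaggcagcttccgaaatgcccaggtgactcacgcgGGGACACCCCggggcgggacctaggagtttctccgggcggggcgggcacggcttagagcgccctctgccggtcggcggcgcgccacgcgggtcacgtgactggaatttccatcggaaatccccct

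The interferon response was the list that lay furthest below the median of all genes, apart from lists of other cell types. Interferons act through a complex with STAT2 and IRF9 on a shared DNA element and induce guanylate-binding proteins, IFIT proteins and the p200 family of DNA sensors. Of 42 measured members, 0 were at least 1.5-fold higher (background 5.05%) and 22 at least 1.5-fold lower (background 10.4%), and the median log2 ratio was -0.62. Ifi27l2a, a gene strongly induced by type I interferon, stood at 194 CPM in aged and 407 CPM in young cells, a ratio of 0.477 (0.446 to 0.510). Slfn2, a Schlafen gene that keeps T cells quiescent, stood at 80.5 CPM in aged and 184 CPM in young cells, a ratio of 0.437 (0.394 to 0.485). The p200 genes Ifi209 (0.562), Ifi214 (0.460) and Ifi206 (0.563) and the GTPase gene Ifi47 (0.430) were lower too. Ifit3, of an RNA-sensing complex, and Usp18, a brake on interferon receptor signalling, with 24 and 15 UMIs in aged and 83 and 53 in young members, had ratios of 0.388 (0.236 to 0.617) and 0.38 (0.199 to 0.684). The signalling genes Irf9 and Stat2 had ratios of 0.772 and 0.541. In all, 6 members, among them Isg15 (0.468) and Ifitm3 (0.395), stood at under 10% of their level in another cell type. Slfn2 in free RNA stood at 120.0 CPM in aged and 212 CPM in young spleen, above its levels in follicular B cells. Ifi27l2a in free RNA stood at 178 CPM in aged and 289 CPM in young spleen. The part of free RNA in these 2 genes was not tested. Per cell at 1000 UMIs the list had a median of 3 UMIs in aged and 4 in young members, and 24.7% of aged against 44.2% of young members lay above the young median. The list median was -0.77 in other B cells, where that of all genes was -0.12, and -0.47 in T cells. Without shared barcodes it was -1.16, and Slfn2 had a ratio of 0.450 (0.194 to 0.889), whereas Usp18 reversed to 1.57 (0.0389 to 9.12). In that setting, with 37 aged members, the median of all genes was -0.18, with 17.0% at least 1.5-fold higher and 34.8% lower. A gene with 0 aged UMIs enters such a median as a lowest value, so -1.16 and -0.62 do not compare like with like.

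The interferon-stimulated response element, GAAA, any 2 bases and GAAA on either strand, was present in the promoters of 18 of 32 measured interferon genes (56.2%), of 3.46% of measured genes and of 2.98% of all promoters. It was present in 5.77% of genes at least 1.5-fold lower and 3.06% of genes at least 1.5-fold higher in aged cells. The promoters of Slfn2 and Ifi47, which were also lower in aged cells, held 0 matches. Only promoters with a match are shown, those of Ifit3, Irgm1 and Stat2, which were lower in aged cells at ratios of 0.388, 0.538 and 0.541. Matches are in capitals, and in Irgm1 the 2 matches overlap.
Ifit3 promoter, chr19:34583279-34583528, plus strand: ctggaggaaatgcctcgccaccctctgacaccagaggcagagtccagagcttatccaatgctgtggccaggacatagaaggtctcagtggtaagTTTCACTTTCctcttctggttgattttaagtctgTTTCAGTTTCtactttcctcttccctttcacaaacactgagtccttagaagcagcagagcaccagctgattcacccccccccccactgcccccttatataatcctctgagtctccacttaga
Irgm1 promoter, chr11:48871421-48871670, minus strand: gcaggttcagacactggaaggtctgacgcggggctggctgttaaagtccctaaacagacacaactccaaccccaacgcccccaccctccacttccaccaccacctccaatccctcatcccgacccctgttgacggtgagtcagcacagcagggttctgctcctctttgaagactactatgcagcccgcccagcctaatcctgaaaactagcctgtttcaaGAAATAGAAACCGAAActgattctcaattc
Stat2 promoter, chr10:128270248-128270497, plus strand: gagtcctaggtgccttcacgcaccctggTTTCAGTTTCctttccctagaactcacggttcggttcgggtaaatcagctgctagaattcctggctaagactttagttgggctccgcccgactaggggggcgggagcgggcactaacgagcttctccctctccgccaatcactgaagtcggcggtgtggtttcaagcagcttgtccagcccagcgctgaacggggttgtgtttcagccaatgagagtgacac

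**Figure D2:**
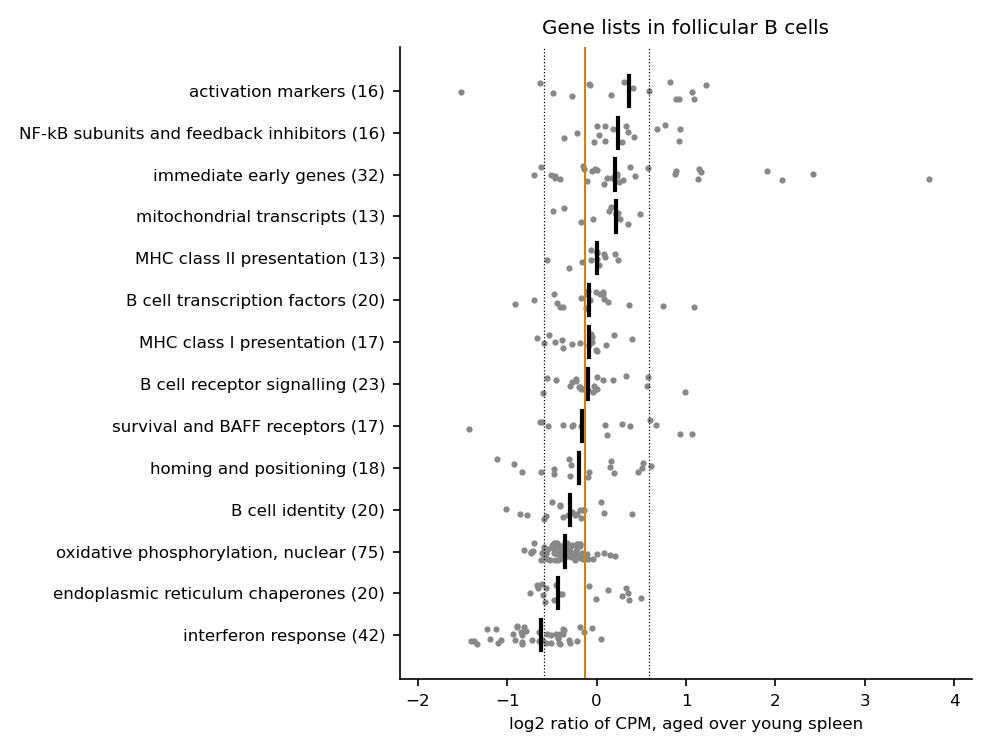
Gene lists in follicular B cells: each grey point is a measured gene at its log2 ratio of CPM in aged over young spleen, black bars are list medians, and the number of genes is in brackets. The orange line is the median of all measured genes (-0.13) and dotted lines mark 1.5-fold. Activation markers (0.36) lie to the right and the interferon response (-0.62) to the left.

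Antigen presentation showed little difference. All 13 measured MHC class II genes stayed within 1.5-fold and their median log2 ratio was 0.00. Cd74, the invariant chain, stood at 8916 CPM in aged and 8872 CPM in young cells, a ratio of 1.0 (0.994 to 1.02), and H2-Aa had a ratio of 1.05. Ciita, the master activator of these genes, was at 231 CPM in aged and 338 CPM in young cells, a ratio of 0.683. In MHC class I presentation 2 of 17 genes were at least 1.5-fold lower (background 10.4%). These were the peptide editor Pdia3 (0.629) and the immunoproteasome subunit Psmb10 (0.662), while B2m had a ratio of 1.01.

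Of 75 nuclear genes of oxidative phosphorylation, 65 stayed within 1.5-fold, 0 were higher (background 5.05%) and 10 lower (13.3%, near the 10.4% of all genes). Their median log2 ratio was -0.35. Ndufa4 stood at 142 CPM in aged and 248 CPM in young cells, a ratio of 0.572 (0.527 to 0.620), and Ndufb7 had a ratio of 0.603. The 13 transcripts of the mitochondrial genome all stayed within 1.5-fold and had a median of 0.22, with mt-Nd1, a subunit of complex I, at 3948 CPM in aged and 3102 CPM in young cells (1.27) and mt-Nd4l at 0.714. At 1000 UMIs per cell the nuclear list had a median of 9 UMIs in aged and 12 in young members, and the mitochondrial list 63 and 55. In T cells the medians were -0.21 for the nuclear and 0.18 for the mitochondrial list. The mitochondrial share also serves as a sign of cell quality, and its part in these values was not tested.

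Genes of protein folding were split. Of 20 endoplasmic reticulum chaperone and stress genes 6 were at least 1.5-fold lower (background 10.4%), with a median log2 ratio of -0.43. Hsp90b1, the chaperone GRP94 for Toll-like receptors and integrins, stood at 201 CPM in aged and 337 CPM in young cells, a ratio of 0.596 (0.557 to 0.638). Hspa5 (0.946) was near 1, and the stress factors Atf4 (1.28) and Dnajb9 (1.41) were above it. Of 16 heat shock genes, Hspa1a (2.04) and Hspa1b (1.58) were higher (background 5.05%) and Hsph1 (0.582), Stip1 (0.580) and Chordc1 (0.60) lower (background 10.4%). Hspa1a and Hspa1b are near-identical copies, and their ratios in other B cells were 0.977 and 0.511. In members without a UMI of other-cell markers Hspa1a had a ratio of 0.818 (0.659 to 1.01).

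**Figure D3:**
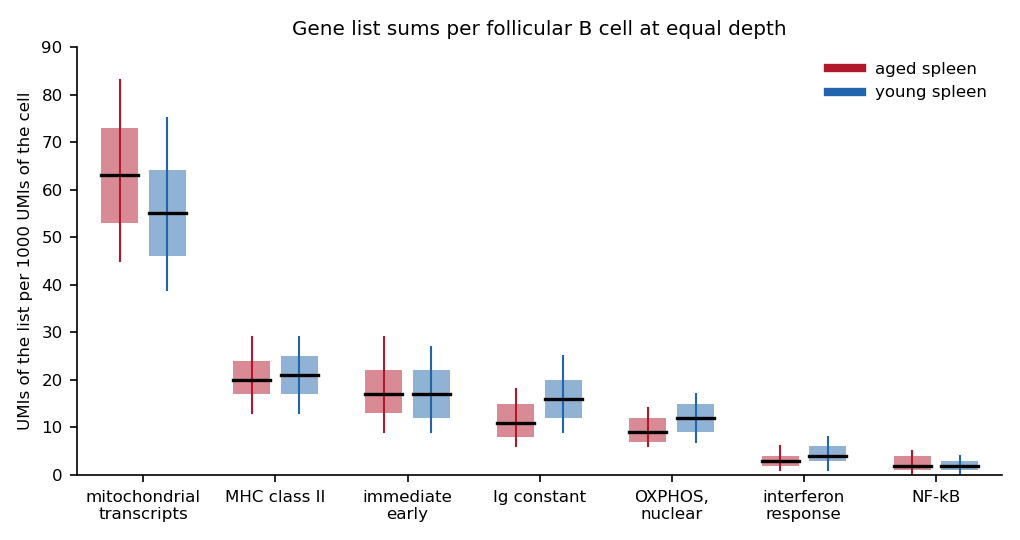
UMIs of each gene list per cell after thinning to 1000 UMIs, in 1237 aged and 1832 young follicular B cells. Boxes span the 25th to the 75th percentile of cells, whiskers the 10th to the 90th percentile, and black bars are medians. Medians are lower in aged cells for immunoglobulin constant genes (11 and 16), nuclear oxidative phosphorylation (9 and 12) and interferon response (3 and 4), and higher for mitochondrial transcripts (63 and 55).

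Receptors that place B cells in the spleen differed gene by gene. Cxcr4, the receptor for CXCL12, stood at 744 CPM in aged and 486 CPM in young cells, a ratio of 1.53 (1.46 to 1.6). Within the threshold lay Gpr183, which guides activated B cells along oxysterol gradients, at 1.43, Cxcr5 1.42 and Ccr7, which directs B cells toward the T zone, 1.37. At equal depth 12% of aged and 9.33% of young members had a Cxcr5 UMI, and 39.5% and 33.3% a Ccr7 UMI. S1pr4, a sphingosine phosphate receptor, stood at 24.6 CPM in aged and 53.2 CPM in young cells, a ratio of 0.462 (0.381 to 0.558). The other 3 on the lower side were the cytokine subunit gene Ebi3 (0.529), the integrin chain gene Itgb1 (0.564), which stood at under 10% of its level in NK cells of young spleen, and the adhesion gene Icam2 (0.652). Without shared barcodes S1pr4 had a ratio of 0.784 (0.213 to 2.02). Of the 18 genes 1 was at least 1.5-fold higher (background 5.05%) and 4 lower (background 10.4%), with a median log2 ratio of -0.20.

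Survival genes were split likewise, with 4 of 17 at least 1.5-fold higher (background 5.05%) and 3 lower (background 10.4%). The lowest was Bcl2l1 (0.371), with 13 aged and 47 young UMIs, at under 10% of its level in erythroid cells of young spleen. Besides Bcl2a1b the higher ones were its near copy Bcl2a1d (1.90), the pro-apoptotic Bcl2l11, which encodes BIM (1.58, but 0.923 without shared barcodes), and the kinase gene Pim1 (1.52). Tnfrsf13c, the BAFF receptor, stood at 188 CPM in aged and 273 CPM in young cells, a ratio of 0.689, within the threshold, and the related receptor TACI, encoded by Tnfrsf13b, had a ratio of 0.656. Bcl2 (0.895) and Mcl1 (0.822) lay near the median of all genes. Of 14 measured Toll-like receptor pathway genes, Pik3ap1 alone was 1.5-fold apart (background 15.5%), and Tlr7 had a ratio of 0.830.

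The receptor itself was read from immunoglobulin constant genes. Ighm stood at 3044 CPM in aged and 3832 CPM in young cells, a ratio of 0.794 (0.780 to 0.809), close to the 0.797 of Ighd. The share of Ighd in the sum of both had a median of 23.5% in aged and 23.5% in young members, so the medians of the 2 groups were equal. Igkc, the kappa light chain, stood at 6176 CPM in aged and 7669 CPM in young cells, a ratio of 0.805. Lambda genes were lower by more: Iglc1 had a ratio of 0.378 (0.357 to 0.400) and Iglc2 with Iglc3, which are near-identical and were summed, 0.590 (0.576 to 0.605). In other B cells these 2 lambda ratios were 0.246 and 0.512. In barcodes of at most 100 UMIs, which hold free RNA, Igkc stood at 11316 CPM in aged and 3494 CPM in young spleen. In aged and young T cells Igkc stood at 1188 and 119 CPM, and Iglc2 with Iglc3 at 18.4 and 20.3 CPM. The part of free RNA in the kappa and lambda values was not tested.

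A mouse B cell normally expresses either kappa or lambda, yet most members held UMIs of both. At a purity of 90% and at least 5 light chain UMIs, 81.4% of 1236 aged and 90.9% of 1828 young members fell in neither class. Kappa-majority members held a median of 6 lambda UMIs in aged and 10 in young spleen, whereas T cells of both libraries held a median of 0. By majority, 77 of 1229 aged members (6.27%, interval 4.98 to 7.77) and 175 of 1815 young members (9.64%, 8.32 to 11.1) were lambda, a ratio of 0.650 (0.490 to 0.854). That ratio turned to 1.12 with at most 5% mitochondrial UMIs (0.602 to 1.97) and to 1.12 without shared barcodes (0.302 to 2.92), so its direction changed with the setting. No source used here gives how reads matching several constant genes were counted. Variable genes were assigned in 14 aged and 20 young members for the heavy chain, and no repertoire was read.

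Switched isotypes were set beside those of T cells, which do not make them and were more deeply read. Ighg2c had a UMI in 80 aged members (6.47%), in 6.71% of aged T cells and in 1 of 1832 young members. Igha had one in 6.47% of aged members and 5.07% of aged T cells, and in 3.55% of young members against 0.757% of young T cells. Ighg2b had one in 3.31% of aged members and 2.24% of aged T cells, and Ighg3 in 1.86% and 0.746%, with intervals that overlap for both. Only 5 aged and 1 young members had more switched than Ighm and Ighd UMIs. Igkc itself stood at 1188 CPM in aged and 119 CPM in young T cells, a ratio of 9.98, and plasma cells, with at least 20 Jchain UMIs, numbered 95 in aged and 15 in young spleen.

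Markers of other B cell states differed in how often they were seen. Cd24a and Vpreb3, both on the list of transitional B cells, had a UMI in 66.9% and 56.2% of aged and 68.6% and 53.3% of young members, before thinning. Cd93, of the same list, had a UMI in 2.51% of aged and 1.69% of young members at equal depth, and the pro-B genes Rag1, Rag2, Dntt and Igll1 were at 0. The age-associated B cell genes Tbx21 and Itgax had one in 0.485% and 0.647% of aged and in 0.819% and 0.164% of young members, against 2.48% and 0.30% of aged T cells and 3.63% and 0.22% of young T cells. Cells of that kind are known to lack CD23, which the rule asks for. Mki67, of dividing cells, was seen in 0.647% of aged and 0.273% of young members, below the 0.90% of aged and 1.21% of young T cells. Among 14 measured marginal zone genes, Myof (2.38), S1pr3 (1.86) and Dtx1, a Notch target (1.51), were at least 1.5-fold higher in aged members (background 5.05%). Cr2 and Cd9 (0.538) were lower (background 10.4%). The median of that list was -0.09. Leaving out 8 aged and 8 young members of over 15000 UMIs moved Cd9 to 0.823.

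The genes furthest apart by the bound of the ratio nearest to 1 gave 12 names each way. Tbc1d4, a Rab GTPase-activating protein of glucose transporter traffic, led the higher side at 64.9 CPM in aged and 3.46 CPM in young members, a ratio of 18.7 (12.8 to 28.6). It was carried by few cells: 20 aged members with at least 5 UMIs held 84.4% of its UMIs, and 14 of them also had an Il1r2 UMI. Without those 20 cells its ratio was 3.0 (1.89 to 4.88), and that of Il1r2, a decoy receptor for interleukin 1, was 12.9 (5.55 to 36.5) in place of 26.6. In aged T cells Tbc1d4 stood at 219.7 CPM, above its level in the members. In barcodes of at most 100 UMIs, which hold free RNA, Tbc1d4 stood at 259 CPM in aged and 83.7 CPM in young spleen and Il1r2 at 69.2 and 8.24 CPM, above their levels in the members too, and the part of free RNA in both genes was not tested.

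Other higher genes were seen in more cells. Lncpint, a long non-coding RNA induced by p53, stood at 189 CPM in aged and 40.6 CPM in young members, a ratio of 4.66 (4.11 to 5.28), with a UMI in 53.4% of aged and 14.8% of young members. Dusp16, a phosphatase of JNK and p38 kinases, stood at 62.1 CPM in aged and 15.0 CPM in young members, a ratio of 4.15 (3.37 to 5.13). Hs3st1, a heparan sulfate sulfotransferase, stood at 117 CPM in aged and 31.9 CPM in young members, a ratio of 3.68 (3.18 to 4.26), and its level in aged T cells was 1.54 CPM. Litaf, an endosomal membrane protein, had a ratio of 3.45 (2.92 to 4.09), with a UMI in 30.5% of aged and 9.33% of young members. Rab20 (5.64), Cystm1 (6.17), Ankrd33b (4.32) and Pmepa1 (4.92) were seen in under 10% of aged members each, between 3.48% and 7.19%. Without shared barcodes Lncpint had a ratio of 3.82 (2.11 to 6.40), Hs3st1 one of 4.52 (2.44 to 7.73) and Litaf one of 6.46 (3.54 to 10.9), while Dusp16 had 2.11 (0.429 to 6.32), whose interval spans 1.

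On the lower side 3 of the 12 names rested on 1 cell. Pf4, a platelet chemokine, had 3 UMIs in aged and 1137 in young members, of which 1122 were in the single young member with 104201 UMIs. The same cell held 56 of 62 young Itga2b UMIs and 40 of 48 young Prkar2b UMIs, and without it these 2 genes had ratios of 1.77 (0.537 to 6.18) and 1.16 (0.358 to 3.66). The others were seen in more cells. Clec2d, a ligand of NK receptors, stood at 43.2 CPM in aged and 112 CPM in young members, a ratio of 0.387 (0.336 to 0.445). Dynll1, a dynein light chain, stood at 124 CPM in aged and 280.4 CPM in young members, a ratio of 0.443 (0.408 to 0.482). The deubiquitinase-like gene Usp50 (0.321), the sorting nexin gene Snx32 (0.243) and the histone genes Hist1h2ae (0.244) and Hist1h1b (0.323), besides Slamf1 and Slfn2, were also among the 12. Without that cell Hist1h2ae had a ratio of 0.311 (0.233 to 0.411). In other B cells the 2 histone genes ran the other way, at 1.43 and 1.47.

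**Figure D4:**
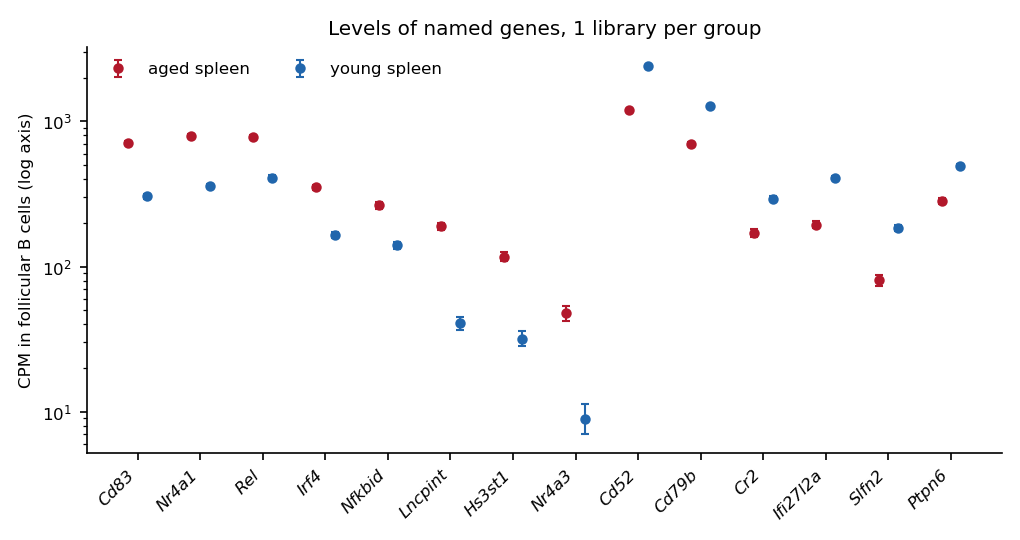
CPM of 14 named genes in follicular B cells of aged and young spleen on a log axis, with exact 95% Poisson intervals, 1 library per group. Aged cells lie above young cells for the 8 genes from Cd83 to Nr4a3, and below them for the 6 from Cd52 to Ptpn6.

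Ratios of some of these genes in other lymphocytes of the same libraries are given side by side. Rel had a ratio of 1.79 in other B cells, 1.98 in T cells and 2.71 in NK cells, beside 1.90 in follicular B cells. Nr4a3 had ratios of 9.0 in other B cells, 3.14 in T cells and 4.47 in NK cells, and Lncpint 4.34, 2.21 and 2.41 in the same order. Cd52 had ratios of 0.494, 0.630 and 0.664, and Slfn2 of 0.517, 0.615 and 0.634. Myc ran apart in B cells, with 1.85 in follicular and 2.02 in other B cells, against 0.591 in T cells and 0.968 in NK cells. Foxo1 was at 1.68 and 1.52 in the 2 B cell classes, 1.09 in T cells and 1.42 in NK cells. Genes lower in follicular B cells could be higher in T cells, as were Slamf1 (0.348 and 1.5), Hist1h2ae (0.244 and 2.24), Hist1h1b (0.323 and 1.86) and Itgb1 (0.564 and 1.88). Whether any ratio differs between cell types was not tested, as each rests on the same 2 libraries.

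**Figure D5:**
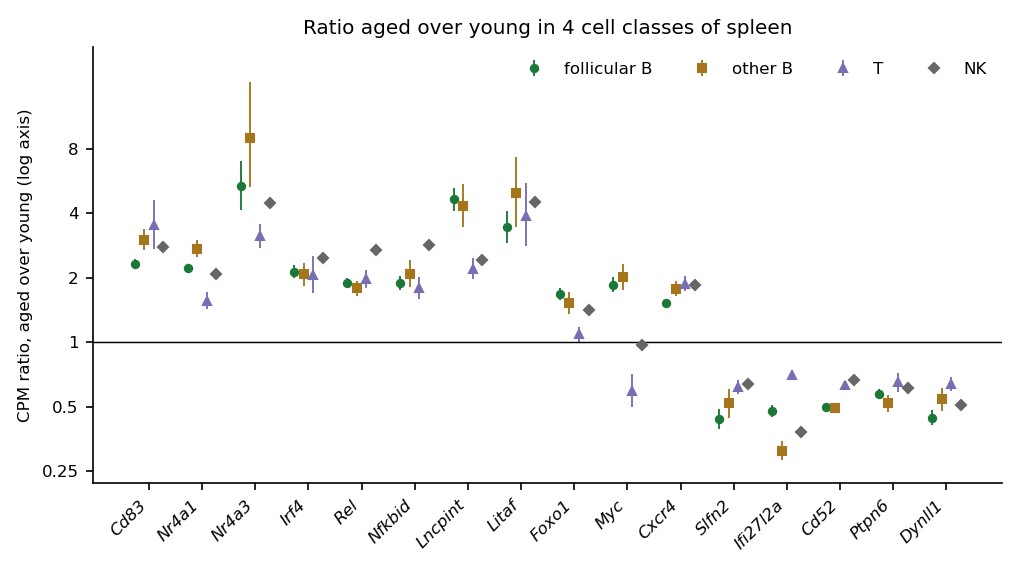
CPM ratio of aged over young spleen for 16 genes in follicular B cells, other B cells, T cells and NK cells, on a log axis, with exact 95% intervals where drawn (none for NK cells). The first 8 genes lie above 1 and the last 5 below 1 in all 4 classes, while Myc lies above 1 in both B cell classes and below it in T and NK cells.

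RNA of other cell types was present in the members and differed between the libraries. The 12 NK markers summed to 408 CPM in aged and 1146 CPM in young members. Of the 12, 11 were at least 1.5-fold lower (background 10.4%) and none was at 0. Gzma had a UMI in 1.86% of aged and 7.59% of young members at equal depth, and stood at 376 CPM in aged and 1644 CPM in young barcodes of at most 100 UMIs, which hold free RNA. The 7 erythroid markers summed to 304 CPM in aged and 80.9 CPM in young members, of which 1 aged member held 357 of 786 Hbb-bs UMIs, and Hbb-bs stood at 2260 CPM in aged and 613 CPM in young free RNA. The 13 myeloid markers summed to 483 and 774 CPM in aged and young members, with 8 of 12 measured at least 1.5-fold lower (background 10.4%). The 14 T cell markers, of which the rule sets Cd3d, Cd3e and Cd3g to 0, summed to 78.2 and 136 CPM. Cd83, Nr4a3 and Irf4 were also higher in aged free RNA, at 344, 152 and 177 CPM, against 198, 34.0 and 147 CPM in young free RNA. So were Nr4a1, at 633 CPM in aged and 472 CPM in young free RNA, and Rel, at 351 and 254 CPM. The young value of Nr4a1 lay above its 359.8 CPM in young members. Slfn2 and Ifi27l2a were lower in aged than in young free RNA. Leaving out members with a UMI of NK, myeloid, erythroid or platelet markers left 513 aged and 975 young members, with 409 genes at least 1.5-fold higher and 791 lower of 7831, and the part of free RNA in single genes was not tested. Scrublet marked 21 aged and 55 young members as doublets, and leaving out all cells it marked gave 492 genes higher and 886 lower.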

How the data were processed

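Single-cell RNA of CD45-high cells was counted in 1 library per group, and groups were taken from the labels. Per the labels' protocols the libraries were made with a 10x Chromium 3' kit, version 2. The deposited matrices hold raw UMI counts per gene and barcode, not filtered for cells. Software and annotation are uncertain: Cell Ranger 1.3.1 with GRCh38 is listed per the submitters' processing notes, but the features are mouse genes and the file headers state software version 3.1.0. The authors' tables of cluster genes were not used.

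Members, gene lists and the rules below were chosen with earlier results of these data known. The libraries held 40628623 (aged spleen) and 39866955 (young spleen) UMIs. UMIs were summed over members and given per 1e6 UMIs (CPM), with exact Poisson intervals, ratios with exact conditional binomial intervals and shares with exact Clopper-Pearson intervals, all at 95%. Genes needed 50 UMIs over both libraries. Equal depth means each cell thinned at random to 1000 UMIs. There was no test, for lack of replicates. Named were the 12 genes each way with the ratio bound nearest to 1 furthest from it, leaving out immunoglobulin, T cell receptor, haemoglobin, ribosomal, mitochondrial and sex genes, gene models, genes of the rule and genes at less than 10% of what another cell type held, plus the given markers and up to 4 members per list (33 lists). Of the 12 lower genes 1 is not reported here. Other list members named were chosen after their values were seen. T and NK cells were taken by marker UMIs in the same libraries. Cells that Scrublet marked as doublets were kept, and left out in an alternative. Ratio intervals were tested on simulated Poisson counts, the model they assume. That test does not cover genes whose UMIs sit in few cells, where the intervals are too narrow. Alternatives changed filters, scaling and members, and 4 of them were chosen after seeing the data. Python 3.11.15, numpy 2.4.6, scipy 1.17.1, pandas 2.3.3 and scanpy 1.11.5 (Scrublet) were used, and gene positions are from GENCODE M21.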

Additional observations from a re-analysis of the deposited data

Results flagged for a closer look

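In the young brain library, which no comparison used, 92 of 8994 filtered barcodes (1.02%, interval 0.825 to 1.25) met the rule for follicular B cells, against 0 of 13662 in the aged brain, which by the limit of 3 counts allows a share of up to 0.0220% (exact interval 0 to 0.0270%). Of the 92, 90 lay at barcodes that also passed as cells in the aged spleen library. The 81 that were members in both libraries had been counted once, in the aged spleen.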

How the results depend on the processing

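No paired analysis was possible because each group has 1 library and no result comes from a test. Over all alternatives, list medians stayed within 0.2 of the value given in 401 cases, moved in 34 and, where that value was at least 0.2 from 0, reversed in 7. Ratios of named genes stayed within their interval in 1445 cases, moved in 292 and reversed in 12, and only a gene at least 1.5-fold apart could count as reversed. The causes were not tested. A minimum of 1000 UMIs per cell kept all 1237 aged and 1832 young members, so its 31 list and 147 gene cases could not change. Leaving out barcodes shared by the 2 spleens kept 1234 aged and 1832 young members, so it could change little. The ratio of the follicular share of all barcodes and of B cells moved to 0.575 and 0.754 with at most 5% mitochondrial UMIs, 0.691 and 0.688 with at least 2 Fcer2a UMIs, 0.643 and 0.640 without members with other-cell markers (which leaves the denominators whole) and 0.177 and 0.479 without shared barcodes, and the lambda ratio reversed to 1.12 with at most 5% mitochondrial UMIs and to 1.12 without shared barcodes. The 470 higher and 971 lower genes became 695 and 565 with median-of-ratios scaling, 1469 and 1926 with 1 UMI in each library, 155 and 205 at 2-fold, and 1441 and 2951 without shared barcodes, where 37 aged members remain. Reversed list medians were cell cycle, at 0.02 (at most 5% mitochondrial) and 0.23 (all B cells), immunoglobulin constant genes, at 0.48 (20 UMIs per gene), 0.48 (1 UMI in each library) and 0.30 (all B cells), B1 markers, at 0.13 (all B cells), and T cell markers, at 0.19 (without shared barcodes). With at most 5% mitochondrial UMIs Pmaip1 reversed to 0.975. With the mean of per-cell CPM Itga2b reversed to 1.23 and Cdk1 to 1.73. Without other-cell markers Hspa1a reversed to 0.818, and in all B cells Cdc20 to 1.33. Without shared barcodes Pik3ap1 reversed to 0.847, Bcl2l11 to 0.923, Ebi3 to 1.26, Usp18 to 1.57, Tbx21 to 1.04, Thy1 to 1.09 and Trac to 1.36, each with an interval that spans 1. Median-of-ratios scaling also put the medians of B cell transcription factors (0.04), receptor signalling (0.03), inhibitory receptors (0.02), MHC class I (0.04), transitional (0.06) and marginal zone genes (0.04) just above 0.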
